A study of Drosophila melanogaster with 6 samples.

Results

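Odorant binding proteins (OBPs) are small secreted proteins that hold hydrophobic molecules in an internal pocket. They are best known from the fluid that bathes olfactory and taste neurons, but a number of fly OBPs are also made in tissues with no chemosensory function, the fat body among them. The fat body stores fat and glycogen and secretes proteins, and much of what it secretes enters the haemolymph. Adipokinetic hormone (AKH) is a glucagon-like peptide that acts on this organ and mobilises its lipid and sugar stores.

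The genes described are 7 of the 52 OBP genes of Drosophila melanogaster, namely Obp99a, Obp99b, Obp44a, Obp19d, Obp56a, Obp56d and Obp56e, out of 15796 genes in the count table. They were chosen by 2 measured values, the high counts of Obp99a and its lower level with AKH overexpression, so their differences between the groups are given as a description and are not tested. RNA came from fat bodies dissected from late 3rd instar larvae of strain w1118. The 3 control libraries carried the fat body driver R4-Gal4 alone (R4-Gal4/+), and the 3 AKH overexpression libraries also carried UAS-AKH (UAS-AKH/+; R4-Gal4/+), so every library carried the driver. The hormone was therefore made in an organ that does not normally produce it. Whether the 3 libraries of a group stem from different larvae is not stated in the labels. The p-values here therefore refer to library-to-library spread, part of which may be technical.

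The libraries held 29803513 to 33150911 counts. Levels are given as CPM, with library sizes corrected for composition, or as the deposited RPKM, which also divide by gene length and are used to compare genes with each other. Fat body genes dominated, with 11 markers summing to 341668 to 483133 CPM, and glue genes of the salivary gland, a tissue that can adhere to the dissected fat body, summed to 21857 to 33661 CPM. Other RNA differed between libraries. The 15 midgut markers summed to 1609 to 4544 CPM in controls and to 15.7, 781 and 15.9 CPM in AKH replicates 1 to 3. Male germline markers summed to 42.2 to 52.1 CPM in control replicate 2 and AKH replicates 1 and 2, and to 15.1 to 17.3 CPM in the other 3 libraries. In such bulk samples, fewer cells of a type and less RNA per cell cannot be told apart.

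Chemosensory organ markers were close to absent. The 6 markers summed to 1.93 to 3.47 CPM per library, and Ir76b, a co-receptor of taste and olfactory neurons, had 0 counts in all 6 libraries. Orco, the olfactory co-receptor, was at 0.403 to 0.912 CPM in controls and at 1.18 to 2.33 CPM with AKH overexpression, without overlap but not called (log2 fold change 1.37, edgeR adjusted p = 0.16). Of 3 tested, 1 fell, beside 1.91% of all tested genes called lower. It was the ionotropic receptor gene Ir93a, from 0.867 to 1.75 CPM in controls to 0.139 to 0.272 CPM (log2 fold change -2.66, edgeR adjusted p = 0.034), a call that ended on leaving out any library but control replicate 2 (adjusted p at most 0.15) and that limma-voom did not make (adjusted p = 0.12). Obp83a and Obp83b, abundant in the adult antenna, had 0 counts in every library, where 3 counts correspond to 0.0907 to 0.109 CPM (counting error only). In these libraries, RNA of 5 of the 7 genes was frequent enough to pass the filter on low counts, namely Obp99a, Obp99b, Obp44a, Obp56a and Obp56d, while Obp19d and Obp56e did not pass it. Which cells of the dissected tissue the RNA came from cannot be told from bulk libraries.

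Obp99b, also known as tsx and described in adult flies as male-enriched in fat cells of the head, was the dominant member. It was at 18969, 21597 and 28941 CPM in control replicates 1 to 3 and at 22242, 17874 and 23936 CPM in AKH replicates 1 to 3. The groups overlapped throughout, with a log2 fold change (AKH overexpression against control) of -0.12 (SE 0.21), and the highest value was 1.53 times the lowest among controls and 1.34 times among AKH libraries. Per length, at 39294 ± 4932 RPKM in controls (SD, n = 3) and 36811 ± 3119 RPKM with AKH overexpression (SD, n = 3), it ranked 1 of all genes in the controls and 2 with AKH overexpression. The genes next to it in that order were those of the larval serum proteins, the main secreted products of this organ: Lsp1gamma was at 35834 RPKM in controls and 45397 RPKM with AKH overexpression, and Lsp2 at 34063 and 34317 RPKM (means).

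Obp99a, named like Obp99b for the chromosomal region that holds both, behaved differently. It was at 475, 518 and 633 CPM in control replicates 1 to 3 and at 140, 123 and 198 CPM in AKH replicates 1 to 3. Every control library lay above every AKH library. The means were 542 ± 81.4 and 154 ± 39.6 CPM (SD, n = 3 each), a log2 fold change of -1.82 (SE 0.21), or 3.53-fold lower. Its rank by RPKM moved from 122 in controls to 280 with AKH overexpression. This is the difference that led to the choice of these genes, so it supports nothing further.

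Some markers of muscle and haemocytes were lower along with Obp99a. The 9 tested neuron markers had a median log2 fold change of 0.38 and the 13 tested male germline markers one of 0.43. Of 14 tested muscle markers 2 fell and 0 rose, beside 1.91% of all tested genes called lower. The median log2 fold change of the 14 was -0.58, and 11 did not overlap between groups, beside 24.3% of all tested genes. The fallers were the myosin light chain genes Mlc2 (log2 fold change -0.83, SE 0.12, edgeR adjusted p = 0.018) and Mlc1 (-0.96, SE 0.17, edgeR adjusted p = 0.038). Leaving out control replicate 1 or AKH replicate 1 or 2 ended the Mlc2 call (adjusted p at most 0.073), and leaving out any library ended that of Mlc1 (at most 0.15). The summed level of the muscle markers was 347 to 375 CPM in controls and 318 to 364 CPM with AKH overexpression. Of 7 tested haemocyte markers 1 fell and 0 rose, beside 1.91% of all tested genes called lower, with a median of -0.01. It was NimC1, a phagocytosis receptor gene of these blood cells, which averaged 5.51 ± 0.893 CPM in the control and 0.984 ± 0.368 CPM in the AKH libraries (SD, n = 3 each; log2 fold change -2.48, SE 0.31, edgeR adjusted p = 0.012). That call was lost without control replicate 1 or AKH replicate 3 (adjusted p at most 0.054). The haemocyte markers summed to 266 to 352 CPM in controls and to 246 to 319 CPM with AKH overexpression. The part of muscle, haemocyte, midgut or sex-linked RNA in the Obp99a difference was not tested.

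Within each library the gap between the pair changed. Obp99b RPKM was 42.0, 43.9 and 48.1 times that of Obp99a in control replicates 1 to 3 and 168, 153 and 127 times in AKH replicates 1 to 3. This ratio does not depend on the scaling of libraries. It shows unequal change of the pair, and since Obp99a was chosen for its decrease, the ratio is a description of the same contrast.

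Obp44a, known in the fly nervous system as a lipid-binding protein of glia, was at 274, 247 and 220 CPM in control replicates 1 to 3. AKH replicates 1 to 3 held 234, 274 and 316 CPM of it. The groups overlapped, with a log2 fold change of 0.15 (SE 0.14). Per length, Obp44a was at 299 to 466 RPKM over the 6 libraries, where repo, the transcription factor gene that defines glia, was at 0.778 to 1.57 RPKM and the astrocyte-like glial gene alrm at 2.33 to 3.65 RPKM. Of 7 tested glial markers 2 fell, the glutamate transporter gene Eaat1 (log2 fold change -1.41, edgeR adjusted p = 0.015) and the glutamine synthetase gene Gs2 (-0.70, edgeR adjusted p = 0.038), with 0 risen. Over all tested genes 1.91% were called lower. The groups did not overlap for 4 of the 7, beside 24.3% of all tested genes. Leaving out AKH replicate 1 or 2 ended the call of Eaat1 (adjusted p at most 0.086), and leaving out any library but control replicate 3 ended that of Gs2 (at most 0.11), as did edgeR with library totals only (adjusted p = 0.11). The median of the 7 was -0.02. Of 9 tested neuron markers 1 rose and 0 fell, beside 1.87% of all tested genes called higher. It was cpx (log2 fold change 0.90, edgeR adjusted p = 0.045). Leaving out any library but control replicate 3 ended this call (adjusted p at most 0.20). The neuronal gene elav was at 36.1, 29.9 and 25.3 CPM in control replicates 1 to 3. AKH replicates 1 to 3 held 29, 43.5 and 46.5 CPM of it. Over the 6 libraries the log2 CPM of Obp44a had a Pearson correlation of 0.82 with the neuron marker mean. With the glial marker mean it was 0.36. The part of nervous system RNA in the Obp44a values was not tested. Pabp2, a poly(A)-binding protein gene, overlaps the end of Obp44a on the opposite strand in a later annotation. Reads of the overlap may be missing from the authors' counts or assigned to the wrong gene. Pabp2 was at 47.3 ± 7.20 RPKM in controls and 44.5 ± 2.39 RPKM with AKH overexpression (SD, n = 3 each).

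**Figure D1:**
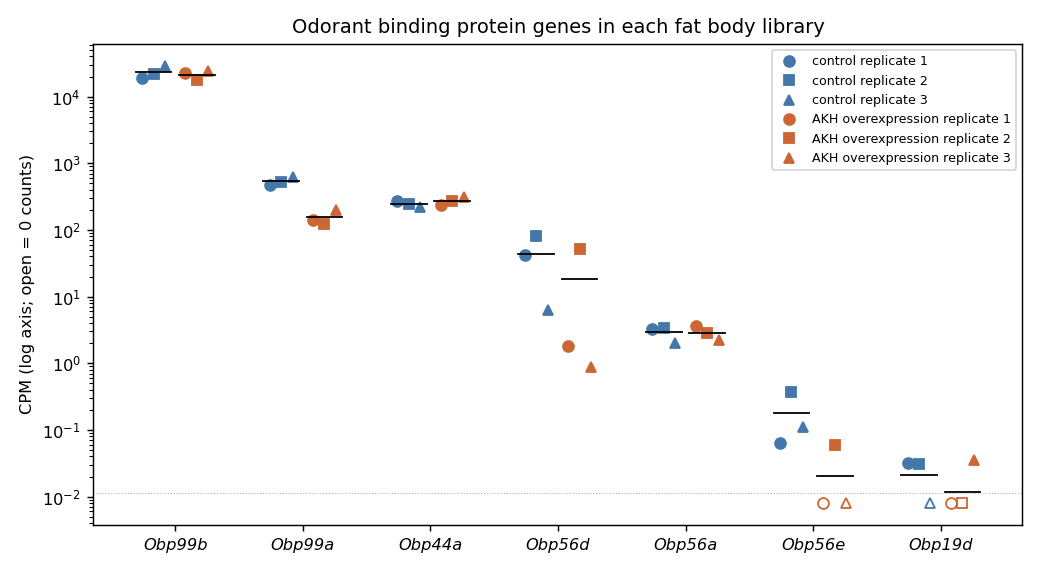
CPM (log axis) of the 7 genes in each of 3 control (blue) and 3 AKH overexpression (orange) libraries, with group means as black bars, and libraries with 0 counts as open symbols under the dotted line. Obp99a separates the groups (475 to 633 against 123 to 198 CPM), Obp99b, Obp44a and Obp56a overlap, and Obp56d spreads within each group.

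The 3 members of the Obp56 cluster, a run of neighbouring OBP genes, spanned from moderate levels to near absence. Obp56a was at 3.29, 3.41 and 2.01 CPM in control replicates 1 to 3 and at 3.59, 2.81 and 2.23 CPM in AKH replicates 1 to 3, with a log2 fold change of -0.01 (SE 0.28). The lowest library of both groups was replicate 3, and the groups overlapped.

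Obp56d was the most variable member. It was at 42.8, 81.8 and 6.35 CPM in control replicates 1 to 3 and at 1.80, 52.5 and 0.869 CPM in AKH replicates 1 to 3. AKH replicate 2 lay above control replicates 1 and 3, and the other AKH libraries lay below every control. The highest library was 12.9 times the lowest among controls and 60.4 times among AKH libraries. Its within-group SD on the log2 scale was 2.58, larger than that of 99.6% of the tested genes. The SDs of Obp99a, Obp99b, Obp44a and Obp56a were 0.29, 0.27, 0.19 and 0.38. The log2 fold change of Obp56d was -1.24 (SE 1.53). It was -5.01 without AKH replicate 2 and -0.43 without control replicate 2, so single libraries decide its size.

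Midgut RNA differed along with Obp56d. The midgut protease gene Jon65Aiv was at 1770, 2495 and 904 CPM in control replicates 1 to 3 and at 1.89, 465 and 0.522 CPM in AKH replicates 1 to 3. The trypsin gene epsilonTry was at 15.8, 45.8 and 0.912 CPM in controls and at 0.0304, 5.08 and 0 CPM with AKH overexpression. For both proteases and for Obp56d, control replicate 2 was the highest library and AKH replicates 1 and 3 were the lowest pair. Of 12 tested midgut markers edgeR called 0, while 3 had a raw p under 0.05. DESeq2 called 1 and limma-voom 0. The absence of edgeR calls depended on AKH replicate 2. Jon65Aiv was at -3.47 (edgeR adjusted p = 0.47) with all libraries and at -10.45 (edgeR adjusted p = 0.0088) without that one. Leaving out any other 1 library gave no call of Jon65Aiv (edgeR adjusted p up to 0.67). The median log2 fold change of the 12 was -3.39, beside 0.02 over all tested genes. The groups did not overlap for 7 of the 12, beside 24.3% of all tested genes. The part of midgut RNA in the Obp56d values was not tested. The order of Obp56d and Jon65Aiv was not the same throughout: control replicate 3 had 1.95 times the Jon65Aiv of AKH replicate 2 but less Obp56d.

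**Figure D2:**
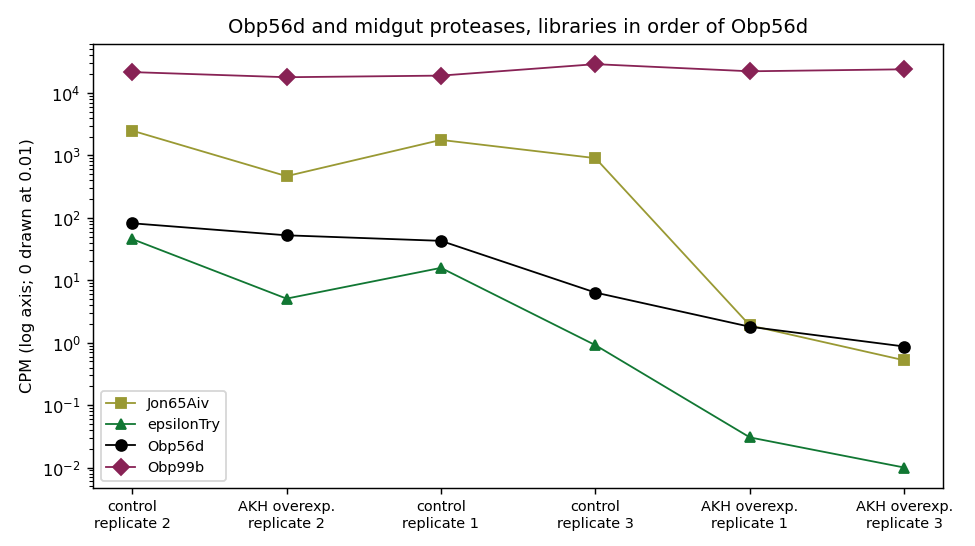
CPM (log axis) of Obp56d, Obp99b and the midgut proteases Jon65Aiv and epsilonTry in the 6 libraries, placed from the highest Obp56d level (81.8) to the lowest (0.869). The proteases and Obp56d are lowest in AKH replicates 1 and 3, whereas Obp99b stays between 17874 and 28941 CPM.

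Obp56e and Obp19d were at the edge of detection. Obp56e had 2, 12 and 3 counts in control replicates 1 to 3 and 0, 2 and 0 counts in AKH replicates 1 to 3. Its summed counts, 17 against 2, gave a control to AKH ratio of 8.88 (95% exact interval 2.11 to 79.2, counting error only), and control replicate 2 held most of them. Without that library the counts were 5 and 2, with a ratio of 4.05 (0.664 to 42.6). Obp19d, also called Pbprp2 and known from chemosensory organs, had 1, 1 and 0 counts in controls and 0, 0 and 1 counts with AKH overexpression, at or under the limit of 3 counts, so no fold is given. An antisense RNA overlaps Obp56e in a later annotation, and its reads could not be told apart if counting ignored strand.

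The groups did not overlap for 1 of the 5 members that passed the filter, Obp99a. Since the choice of these genes used this contrast, nothing is read from that count. Over all 10705 tested genes, 24.3% did not overlap between groups, and edgeR called 404 genes, 3.77%, in either direction. DESeq2 called 8.48% and limma-voom 3.48% of the genes they tested.

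The comparison with the rest of the family places the members. Per length, Obp99b was the highest of all OBP genes. In controls it was followed by Obp99c, a family gene outside the chosen set at 1057 to 1173 RPKM, then Obp99a at 808 to 920 and Obp44a at 299 to 442 RPKM, with no overlap between neighbours in this order. With AKH overexpression Obp44a (360 to 466 RPKM) stood above Obp99a (217 to 308 RPKM). Obp56d (9.31 to 149 RPKM in controls) lay below Obp44a without overlap and overlapped with Obp83ef (3.99 to 41.3), which overlapped with Obp56a (3.19 to 6.71). With AKH overexpression Obp56d (1.38 to 95.1 RPKM) overlapped with both of them. Obp83cd, Obp49a, Obp83g and Obp18a followed, with medians of 0.674 to 4.90 RPKM in either group. Obp56e (0.120 to 0.724 RPKM in controls) lay below them.

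**Figure D3:**
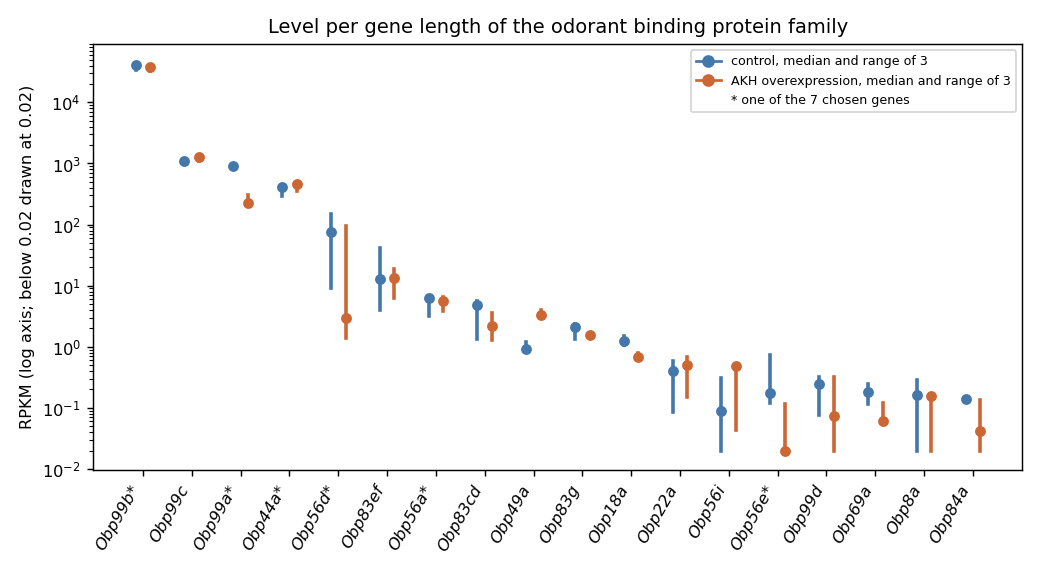
RPKM (log axis) of the 18 OBP genes with a mean of at least 0.1 RPKM in a group, as the median (point) and range (bar) of 3 control (blue) and 3 AKH overexpression (orange) libraries; asterisks mark the chosen genes. Obp99b lies at 33272 RPKM or more in every library, Obp99c, Obp99a and Obp44a lie between 217 and 1309, and the rest are lower.

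Of the 45 other OBP genes, 18 had 0 counts in all 6 libraries, 21 more had at least 1 count but too few to be tested (at most 33 over 6 libraries, in Obp56i), and 6 were tested. Of these 6, 1 rose, 0 fell and 5 were not called, against 1.87% of all tested genes called higher. The riser was Obp49a, which in adult taste organs is known for its part in the suppression of sweet responses by bitter compounds. It was at 0.677, 0.650 and 1.06 CPM in control replicates 1 to 3 and at 2.44, 2.87 and 2.68 CPM in AKH replicates 1 to 3, so that it was higher in 3 of 3 AKH libraries with no overlap. Its log2 fold change was 1.74 (SE 0.27), with an adjusted p = 0.025 (edgeR quasi-likelihood test, Benjamini-Hochberg over all tested genes). The call was lost without control replicate 1 or 2 or without any 1 AKH replicate, with adjusted p up to 0.11 and log2 fold changes of 1.60 to 1.80 in those fits.

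The other 5 tested genes were not called. Obp99c was at 608 to 690 CPM in controls and at 672 to 754 CPM with AKH overexpression, a log2 fold change of 0.13 (SE 0.10, edgeR adjusted p = 0.56). Obp18a (-0.85, SE 0.36, edgeR adjusted p = 0.29) had no overlap between groups at 0.742 to 1.24 and 0.453 to 0.578 CPM. Obp83ef and Obp83cd, each with a pair of OBP domains in 1 protein, were at -0.56 (SE 0.75) and -0.72 (SE 0.52). Reads where this gene pair overlaps may be missing or assigned to the wrong gene. Obp83ef spread widely, from 3.87 to 32.3 CPM in controls. The median of the 6 was -0.44, beside 0.02 over all tested genes.

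**Figure D4:**
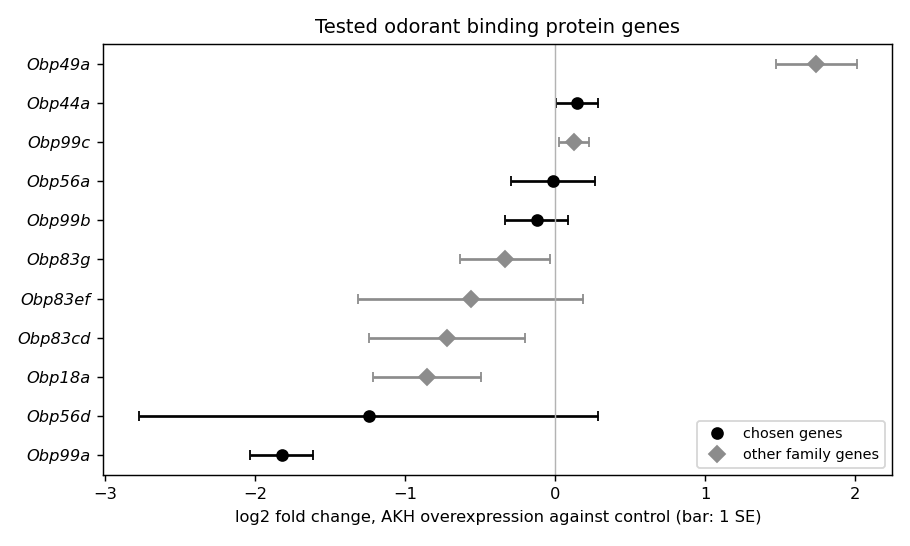
Log2 fold change (AKH overexpression against control) with 1 SE for the 11 OBP genes that passed the filter on low counts, from 3 libraries a group; black circles are the chosen genes and grey diamonds other family genes. Obp99a lies at -1.82 and Obp49a at 1.74, and Obp56d has the widest error, 1.53.

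Sex-linked RNA also differed between libraries, and Obp99b has a known sex bias in the adult. Yp3, a yolk protein gene of females, was at 674, 250 and 486 CPM in control replicates 1 to 3 and at 256, 57.6 and 184 CPM in AKH replicates 1 to 3. The male dosage compensation RNA roX1 was at 118, 163 and 186 CPM in controls and at 169, 311 and 221 CPM with AKH overexpression. edgeR called 0 of 7 tested sex markers, while 3 had a raw p under 0.05. DESeq2 called 1 and limma-voom 0. Obp99b, at 17874 CPM, was lowest in AKH replicate 2, which had the most roX1 and the least Yp3. Among controls the order differed: replicate 1 had the least roX1 and the most Yp3 but the least Obp99b (18969 CPM).

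The lowest AKH library for Yp3, replicate 2, was also the lowest for Obp99a. Among controls the order differed: replicate 1 had the most Yp3 (674 CPM) but the least Obp99a (475 CPM). The mean log2 CPM of the 11 sex markers had a Pearson correlation of 0.93 with Obp99a, which partly restates the group difference. By replicate number this mean was 1.71, 1.63 and 1.95 for controls, against 1.35, 1.32 and 1.38 for AKH libraries. Like Obp99a, it separated the groups, was highest in control replicate 3 and fell from AKH replicate 3 to 1 to 2. Its lowest control was replicate 2, not replicate 1. The 11 sex markers summed to 497 to 881 CPM in controls and to 446 to 506 CPM with AKH overexpression. Without control replicate 2 and AKH replicate 2, the libraries of each group with the most midgut RNA, the log2 fold change of Obp99a was -1.72. The libraries left had midgut markers at 3126 and 1609 CPM in controls and at 15.7 and 15.9 CPM with AKH overexpression. That fit, chosen after seeing the data, therefore cannot show the part of midgut RNA in the Obp99a difference.

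The genes next to the members in the order of a later genome release were also looked up. Obp99a lies between the sodium channel family genes ppk30 and ppk19, which had 15 and 25 counts over the 3 controls and 12 and 9 over the 3 AKH libraries. Obp99b lies between Dup99B, a seminal fluid peptide gene with 1 and 3 counts, and CG15506, which was at 2.74 ± 0.639 and 0.651 ± 0.320 CPM (SD, n = 3 each; log2 fold change -2.06, SE 0.42, edgeR adjusted p = 0.056). CG15506 was not called by edgeR or limma-voom (adjusted p = 0.077) but was by DESeq2 (adjusted p = 0.00032), by limma on RPKM (0.036 and 0.043) and by edgeR without AKH replicate 2 (0.042). On the side of Obp44a away from Pabp2 lies Lpin, which encodes lipin, a phosphatidate phosphatase. It fell by 1.00 (SE 0.17) on the log2 scale, with an edgeR adjusted p = 0.032 that rose to at most 0.15 and past the threshold on leaving out any library but control replicate 3. Obp19d lies between Obp19c, with 0 counts, and the phosphatase gene Pp4-19C at 37.3 ± 2.32 and 33.9 ± 2.87 CPM (SD, n = 3 each). The OBP neighbours in the Obp56 cluster, Obp56b, Obp56c and Obp56f, had 0, 6 and 0 counts over the controls and 0, 0 and 1 over the AKH libraries.

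The genes most like each abundant member were taken by Pearson correlation of log2 CPM over the 6 libraries among 6835 genes of at least 5 CPM. All genes of a library share its tissue makeup, which differed between libraries, so these values are a description. For Obp99a they were CG10962 (r = 0.996), Fnta (0.995) and Gk2 (0.994), with log2 fold changes of -1.69, -0.35 and -2.27, and 122 genes had an r over 0.95. For Obp99b they were GCC88 (0.997), fend (0.988) and crn (0.985), whose log2 fold changes lay between -0.12 and -0.04, and 17 genes passed 0.95. For Obp44a they were Gug (0.990), miple1 (0.984) and Adar (0.983). For Obp56d they were CG42834 (0.994), CG14332 (0.988) and CG12974 (0.980), and 9 genes passed 0.95. None of the 12 genes was named for more than 1 member, and none was an OBP gene.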

How the data were processed

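The authors deposited raw counts and RPKM values for each gene, both with 1 column per library. The submitters' processing notes name build BDGP5, TopHat2 2.0.9 with Bowtie2 2.0.6, DESeq 1.10.1 and HTSeq 0.5.4p3. How strand was treated, the annotation release and any filter are not known from the sources used here. Deposited RPKM equalled deposited counts divided by library total and 1 length per gene in 7684 genes of more than 50 counts per library (largest relative spread 1.04e-07). The reference annotation is of a later build, so no coordinates are given. Protein sequences were not used here.

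The test on counts was edgeR 4.0.16 under R 4.3.3 (default expression filter, TMM, quasi-likelihood F test, no covariate, 6 libraries, 10705 genes) and called at a Benjamini-Hochberg adjusted p under 0.05. Log2 CPM used a prior count of 2. Members and gene lists were chosen with earlier results of these data known. Named are all 7 members, other OBP genes called or of at least 1 CPM in a group, neighbouring genes, the 3 genes most like each member of at least 5 CPM, up to 3 called genes or else the most abundant gene of each other list the text reports, and markers that move with a result. Other OBP genes at or near 0 counts, Obp18a, Lsp2, CG7953 and CG8997 were named after their values were seen.

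On simulated counts of this comparison (200 changed genes, 10381 tested) edgeR found 41% of the genes changed by 1 log2 unit and 74% of those changed by 2 log2 units, with 4.17% false calls. On the same counts 24.1% of DESeq2 calls and 4.24% of limma-voom calls were false. The counts were drawn once, from the spread that edgeR estimated for each gene and without tissue differences shared by genes of a library. They therefore cannot rank the tools on the real libraries. Alternatives used other scalings, no filter, DESeq2 1.42.0, limma 3.58.1 (voom, and log2(RPKM + 1) or log2(RPKM + 0.1)), a block for the replicate number, and libraries left out. Figures were drawn with matplotlib 3.10.9.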

Additional observations from a re-analysis of the deposited data

How the results depend on the processing

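The log2 difference of Obp99a ranged from -2.05 to -1.69 in fits without 1 library and -1.84 to -1.81 under the other scalings, tools and filters. Obp99b (-0.26 to 0.08), Obp44a (0.04 to 0.26) and Obp56a (-0.22 to 0.14) moved by less than their spread between replicates without 1 library, and Obp56d ranged from -5.01 to -0.43. Under the other scalings, tools and filters Obp56d lay between -2.63 (limma on log2(RPKM + 0.1)) and -1.22 (edgeR with library totals only). Leaving out 1 library gave 144 to 479 called genes and 0 to 1 called among the other OBP genes; DESeq2 called 989 genes. Fits without 2 or 3 libraries were chosen after seeing the data. Without control replicate 2 and AKH replicate 2, 227 genes and 0 other OBP genes were called and Obp56d was at -4.19. Without the 3 libraries with more male germline RNA (2 controls against 1 AKH library, assumed to vary alike), 2 genes and 0 other OBP genes were called, and Obp99a, Obp44a and Obp56d were at -1.49, 0.35 and -4.82. The cause of these shifts was not tested.

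Deviations of same-numbered libraries from their group means had correlations of -0.369, 0.600 and 0.502, and not every library correlated best with its own number. With 3 libraries a group, these values neither show nor exclude a pairing by number. With the replicate number as a block, 430 genes were called and the log2 difference of Obp99a was -1.84. Among the other named genes, Yp3 (log2 difference -1.64, adjusted p = 0.018) and CG15506 (0.031) were then called, and Ir93a (0.080), Jhbp14 (0.087) and Mlc1 (0.074) were not. Depth limits Obp19d and Obp56e and the other untested OBP genes, whose counts lie near the limit of detection.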

Other observations

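Other families of small secreted carriers of hydrophobic molecules were measured beside the OBPs. Of 7 tested NPC2 genes, which encode sterol-binding proteins, edgeR called 0, with a median log2 fold change of -0.18. There were 2 at an unadjusted p under 0.05, and DESeq2 called 1 and limma-voom 0. The most abundant, Npc2g, was at 322, 300 and 428 CPM in control replicates 1 to 3 and at 323, 298 and 336 CPM in AKH replicates 1 to 3.

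Of 12 tested takeout family genes, which encode proteins with a juvenile hormone binding domain, 1 fell (Jhbp14, log2 fold change -0.90, edgeR adjusted p = 0.034), 0 rose and 11 were not called, with a median of -1.28. Over all tested genes 1.91% were called lower. The groups did not overlap for 5 of the 12, beside 24.3% of all tested genes. The Jhbp14 call was lost in all 6 fits without 1 library (adjusted p up to 0.13). The most abundant members, CG7953 and CG8997, were at 250 to 500 and 188 to 378 CPM in controls. In AKH replicates 1 to 3 CG7953 was at 0.304, 119 and 0.104 CPM and CG8997 at 9.50, 99.2 and 2.23 CPM, where midgut markers summed to 15.7, 781 and 15.9 CPM. With all libraries their log2 fold changes were -3.36 and -3.04 (edgeR adjusted p = 0.46 and 0.29). Without AKH replicate 2 edgeR called both, at -10.9 (adjusted p = 0.0049) and -5.68 (adjusted p = 0.031). Neither was called on leaving out any other 1 library. The part of midgut RNA in this family was not tested.

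Obp83ef, at 10.6, 32.3 and 3.87 CPM in control replicates 1 to 3 and 11.4, 14.8 and 5.63 CPM in AKH replicates 1 to 3, was highest in control replicate 2, where the mean log2 CPM of 19 ecdysone and stage genes was also highest (5.23). It was lowest in replicate 3 of both groups, where that mean was 3.90. Over the 6 libraries the Pearson correlation of log2 CPM with that mean was 0.93 for Obp83ef. It was 0.95 for Obp83cd, 0.81 for Obp56d and 0.76 for Obp56a. The rest of the tested OBP genes lay between -0.62 and 0.54. For Obp56d the correlation with the midgut marker mean was 0.89. Correlations with the means of other marker lists were also taken, and some were as large. With sex markers they were 0.96 for Obp18a and 0.93 for Obp99a. Obp99a had 0.90 with haemocyte and 0.89 with muscle markers, and Obp99b had 0.89 with fat body markers. The link with stage genes is therefore not singular. For genes that separate the groups, such values partly restate the group difference. The part of stage in these values was not tested.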
